A study of Homo sapiens with 346 samples.

Results

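The fixed cells labelled HepG2 were ranked by a mitotic score, and the 27 cells of highest score were compared with the 27 of lowest score. The cells were thus chosen by measured values: the score was the mean of log2(TPM + 1) over the 10 genes TOP2A, MKI67, CCNB1, CDC20, PLK1, AURKA, CENPF, UBE2C, BUB1 and TPX2. TPM is a gene's share of a cell's transcripts, corrected for transcript length. These 54 cells came from 82 ranked cells, and the series held 334 deposited columns of single cells. The 28 cells between are called middle cells here, and the cells at either end are called high and low cells.

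The study asked how methanol fixation changes single-cell RNA sequencing, and it did so in HepG2 and HCT-116, human liver and colon cancer cell lines. Fixed cells were kept in 80% methanol at -80 °C for 1 week, rehydrated and sorted, whereas live cells were sorted without fixation. All were grown in DMEM with serum, gated for single cells by scatter, and sequenced with Smart-seq2, which reads full-length cDNA of single sorted cells. The labels gave 90 fixed and 69 live HepG2 cells and 96 fixed and 91 live HCT-116 cells, of which 83, 68, 92 and 91 had a column. In 1 pair a fixed column was equal to a live column, and both were left out, so 82 fixed and 67 live HepG2-labelled cells remained. No label named a culture for a cell, although the HepG2 experiment had been run more than once. The fixed HepG2 cells were therefore 1 sample, and every difference below is a description of these cells without a test. Where an SD is given, it is over cells.

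The label was checked against marker genes. Of 18 hepatocyte markers 10 had a row, and 0 were above 1 TPM in the median cell, the summed TPM of these markers having a median of 0 in high cells and 0.22 in low cells. Genes of estrogen receptor positive luminal breast cells were at high levels instead: the 16 luminal genes summed to a median of 18370 TPM in high cells, 18440 TPM in middle cells and 15230 TPM in low cells. That sum includes the keratins KRT8, KRT18 and KRT19, so it is not a measure of estrogen receptor genes alone. KRT8 had a median of 5496 TPM in high and 5048 TPM in low cells, and the estrogen receptor ESR1 25.3 and 23.8 TPM. The cells are called HepG2-labelled for that reason. None of the luminal genes passed the size used below in either direction (median difference 0.04 over 16 genes), so the split by score did not follow luminal identity genes. Fibroblast and blood markers were low, with 3 and 1 of them at 1 TPM or more on average, and none of these was past that size.

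As background, a dividing cell copies its DNA in S phase, prepares in G2 and separates its chromosomes in mitosis. The genes for the mitotic machinery are switched on late in this cycle, after those for DNA synthesis, and many of their messages and proteins are removed again as the cell returns to G1. The MuvB core with B-MYB and FOXM1 binds the cell cycle homology region, or CHR, in many late promoters, NF-Y binds the CCAAT box, and E2F factors bind sites in promoters of S phase genes. In quiescent cells the DREAM complex represses both sets. A growing line is a mixture of cells at all of these stages.

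The score spread more among low cells than among high cells. It ran from 6.03 to 7.79 in high cells, with a median of 6.82, from 4.71 to 5.98 in middle cells, with a median of 5.56, and from 0.726 to 4.69 in low cells, with a median of 1.86. The limits did not fall in gaps, since the neighbouring cells stood at 6.03 and 5.98 at the upper limit and at 4.71 and 4.69 at the lower limit. Because they chose the cells, the score genes are given as a description only. PLK1, the polo-like kinase of mitotic entry, had a lowest, median and highest value of 36.8, 151.5 and 517 TPM in high cells and of 0, 0 and 59.2 TPM in low cells. AURKA, the kinase of spindle poles, ran from 90.4 to 772 TPM in high cells and from 0 to 58.8 TPM in low cells, so its groups did not overlap. UBE2C, the ubiquitin-conjugating enzyme of the anaphase-promoting complex, was the most abundant of the score genes on the TPM scale, at medians of 680 and 19.6 TPM. Differences of the 10 genes in mean log2(TPM + 1) lay between 2.93 for MKI67 and 6.26 for PLK1. Over the 45 pairs of score genes, Spearman's rho across the 82 cells, which share libraries and depth, had a median of 0.773 and ran from 0.564 to 0.898.

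**Figure D1:**
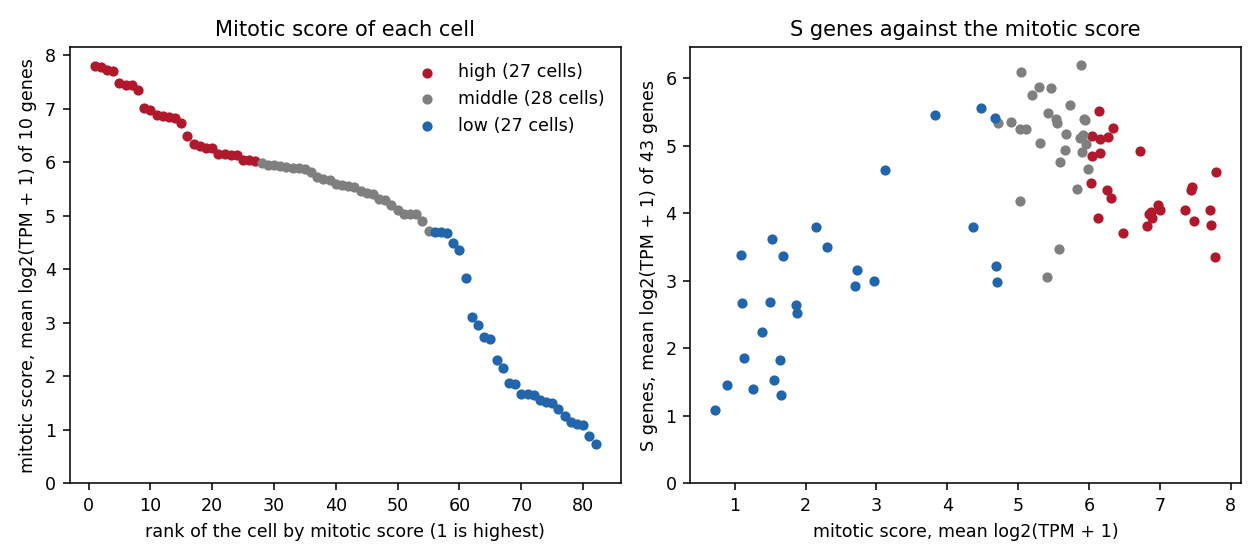
Left, mitotic score (mean log2(TPM + 1) of 10 genes) of each fixed HepG2-labelled cell by rank; right, the mean log2(TPM + 1) of 43 S phase genes against the score. Each point is 1 cell, and the S genes are highest among middle cells, the score falling steadily through rank 55 and steeply over the low cells.

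The quality of the libraries moved in part with the score. High cells had a median of 12588 genes detected and low cells 11905, with ranges of 8996 to 15959 and 8988 to 14280 that overlapped. Total reads had medians of 2000000 and 1800000. The share of reads assigned to transcripts stood further apart, at medians of 80.7% and 74.1%, and Spearman's rho of the score with it was 0.543 over 82 cells, against 0.178 with genes detected and 0.176 with reads. The part of these measures in the differences was examined only by pairing. With 23 pairs of high and low cells matched on genes detected, 663 genes were higher, and 82.3% of the genes past the size defined below were higher. With 13 pairs matched on the share of reads assigned, 994 were higher, which was 81% of those past the size. These 994 held 528 of the 684 higher genes reported below, and the lower genes then held 63 of the 96 reported below. Fewer cells were compared in this setting, so its count cannot be set directly against the 684. A set of 6 columns resembled each other closely (r of at least 0.956, against 0.942 at most for any other pair), 2 of them high cells, 4 middle and 0 low. The gene TPM of each of these 6 columns summed to at least 999375, against 987262 at most in any other cell. Whether they form a batch was not tested, and no label names one. Without these 6 columns 705 genes were higher, 84.5% of those past the size.

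Across all genes the higher side was the larger. A gene was counted when its mean log2(TPM + 1) differed by at least 1, that is 2 times on this scale, among 12190 genes with a mean of at least 1 TPM outside the score. Of these, 684 genes were higher in high cells, which is 5.61%, and 96 were lower, which is 0.788%. Thus 87.7% of the genes past this size were higher, and the median difference over all genes was 0.18. As the ratio of mean TPM, which gives weight to the few cells of highest value, 472 were higher and 482 lower, so that 49.5% were higher. Rescaling by the median ratio shifted the median of all genes from 0.18 to 0.03 and left 456 higher, 79.6% of those past the size. On the log2 scale 58 genes were higher by 3 or more and 27 by 4 or more, whereas 2 were lower by as much as 2. The groups failed to overlap for 3 genes, KIF2C, KIF4A and PRC1, all higher in high cells, and for 0 genes lower in high cells. These 3 were singled out after their values were seen.

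Promoters of 4 of the 15 genes of largest difference are shown first, because sequence was not used in the split. They come from RefSeq on GRCh38.p14 and run from 250 bases before to 50 bases after the gene's start, on the strand of the gene, 5′ to 3′. Capitals mark the CHR motif TTTGAA, the CCAAT box, or an E2F site (TTTCCCGC, TTTGGCGC or TTTCGCGC), on either strand. The first 3 were picked because they hold a CHR close to the start with a CCAAT box upstream. RRM2 was picked because it holds no TTTGAA and peaked in middle cells. Of the 15 genes, 14 had a promoter entry, of which 8 held a CHR, 11 a CCAAT box and 1 an E2F site. The 3 genes of largest difference, AURKB, KIF20A and PTTG1, held no TTTGAA in this window. Other forms of the CHR were not searched for, here or in the shares below.
CDCA3 (chr12:6851237-6851536, minus strand): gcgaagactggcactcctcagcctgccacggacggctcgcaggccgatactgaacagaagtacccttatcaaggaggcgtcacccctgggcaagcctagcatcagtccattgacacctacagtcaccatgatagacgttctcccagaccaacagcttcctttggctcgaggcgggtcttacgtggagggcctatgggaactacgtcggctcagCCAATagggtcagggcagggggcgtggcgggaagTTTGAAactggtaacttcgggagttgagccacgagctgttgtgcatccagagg
PRC1 (chr15:90994486-90994785, minus strand): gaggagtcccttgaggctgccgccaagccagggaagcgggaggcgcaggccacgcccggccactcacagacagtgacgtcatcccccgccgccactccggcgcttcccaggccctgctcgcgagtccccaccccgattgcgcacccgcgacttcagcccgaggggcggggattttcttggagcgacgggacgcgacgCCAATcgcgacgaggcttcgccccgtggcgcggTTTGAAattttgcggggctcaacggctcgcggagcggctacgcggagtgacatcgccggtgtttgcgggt
CDCA8 (chr1:37692266-37692565, plus strand): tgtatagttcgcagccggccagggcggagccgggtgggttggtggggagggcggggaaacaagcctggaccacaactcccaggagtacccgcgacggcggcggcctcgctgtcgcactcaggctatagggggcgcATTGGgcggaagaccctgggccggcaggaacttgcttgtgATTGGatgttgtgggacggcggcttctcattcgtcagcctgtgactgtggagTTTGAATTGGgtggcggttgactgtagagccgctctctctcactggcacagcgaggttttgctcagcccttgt
RRM2 (chr2:10122489-10122788, plus strand): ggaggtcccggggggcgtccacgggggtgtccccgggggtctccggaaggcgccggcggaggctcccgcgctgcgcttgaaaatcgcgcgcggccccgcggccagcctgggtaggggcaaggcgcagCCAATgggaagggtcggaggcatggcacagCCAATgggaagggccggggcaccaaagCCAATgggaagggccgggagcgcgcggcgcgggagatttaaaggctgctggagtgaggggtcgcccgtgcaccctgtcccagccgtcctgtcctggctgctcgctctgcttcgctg
Counted from the gene's start, whose first base is 0, the CHR of CDCA3 began at -3, that of PRC1 at -20 and that of CDCA8 at -23. Their CCAAT boxes began at -37 in CDCA3, at -53 in PRC1, and at -115, -75 and -18 in CDCA8. RRM2 had 3 CCAAT boxes, at -123, -93 and -66.

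The share of promoters with a CHR was larger where the difference was larger. It was 64.6% among the 48 genes higher by 3 or more that had a promoter, 43.4% among 83 genes higher by 2 to 3, and 15.4% among 421 genes higher by 1 to 2. Among all 9156 tested genes with a promoter it was 9.73%, among the 58 lower genes 15.5%, and among all 27305 promoters 15.4%. CHR and CCAAT box together were held by 50% of the genes higher by 3 or more and by 4.31% of all tested genes. E2F sites did not follow this order, at 8.33% of the genes higher by 3 or more, 16.9% of those higher by 2 to 3 and 5.07% of all tested genes. The S phase genes had another makeup: of 32 with a promoter, 50% held an E2F site, 71.9% a CCAAT box and 6.25% a CHR. A match is a description of these letters in this window, and the motifs were counted separately, so that overlapping matches each counted. Among the genes described below, the promoter of KIF2C held none of the motifs, which says only that these letters are not in its window.

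**Figure D2:**
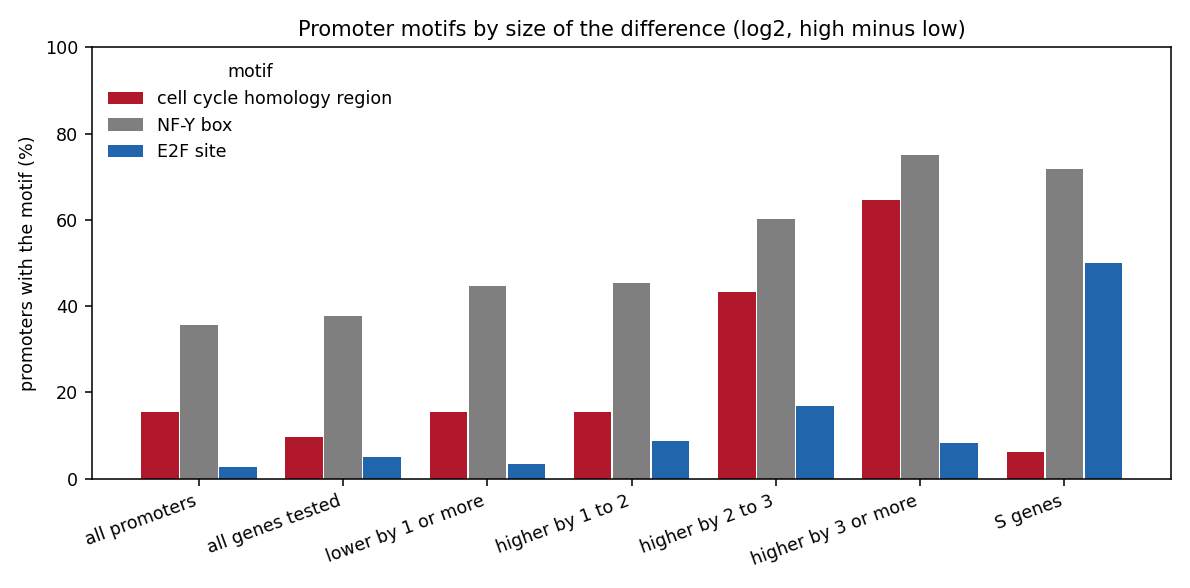
Percent of RefSeq promoters (300 bases) with a cell cycle homology region, an NF-Y box (CCAAT) or an E2F site, by the size of the difference in mean log2(TPM + 1), high minus low cells. Bars for the cell cycle homology region stand at 15.4, 43.4 and 64.6% in the order of rising difference, and the E2F bar is highest for S genes at 50%.

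The cyclins, CDK1 and the mitotic kinases were higher in nearly the whole list, with 14 of 15 genes past the size, 0 lower and a median difference of 2.91. AURKB, the kinase of the chromosomal passenger complex, which corrects faulty attachments of chromosomes, had the largest difference of any gene outside the score, at 6.26. Its lowest, median and highest values were 51.98, 200 and 401 TPM in high cells and 0, 0 and 88.1 TPM in low cells. It was above 0 in 27 of 27 high cells and 9 of 27 low cells, and a few low cells overlapped the high ones. CDK1, the kinase that drives entry into mitosis, differed by 4.85 and was listed at 0, 154.4 and 399 TPM in high cells against 0, 0.934 and 101.8 TPM in low cells. A single high cell (1 of 27) was at 0 for CDK1, so its groups overlapped over much of the low range. CCNA2, the cyclin of S and G2, differed by 4.77, CDC25C, the phosphatase that activates CDK1, by 4.34, and CCNB2, a mitotic cyclin, by 3.99. The member below the size was WEE1, the kinase that restrains CDK1, at a difference of 0.45.

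Chromosomal passenger and cytokinesis genes were past the size in 12 of 12 cases, with the largest median of the lists, 4.08. Their summed TPM had medians of 870 in high, 566 in middle and 48.3 in low cells. KIF20A, the kinesin that brings the passenger complex to the central spindle, differed by 5.51, its values being 4.60, 107.4 and 225 TPM in high cells and 0, 0 and 41.9 TPM in low cells. PRC1, which bundles the microtubules of the central spindle, ran from 79.3 to 286 TPM in high cells, with a median of 140.7, and from 0 to 66.9 TPM in low cells, with a median of 4.57. The lowest high cell thus stood above the highest low cell. CDCA8 and BIRC5, the borealin and survivin subunits of the passenger complex, differed by 4.48 and 4.35, and INCENP, its scaffold, by 1.96. The smallest difference of the list was that of CIT, citron kinase, at 1.52.

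Of the spindle checkpoint and kinetochore genes 25 of 28 were higher and 0 lower, with a median of 2.82. The outer kinetochore subunits NDC80, SPC25 and NUF2, which bind microtubules, differed by 4.73, 4.53 and 4.45. NDC80 ran from 4.43 to 120 TPM in high cells, with a median of 52.3, and was above 0 in 6 of 27 low cells. DLGAP5, a spindle protein placed in this list, differed by 4.86, TTK, the checkpoint kinase, by 4.35, and BUB1B by 3.79. The inner kinetochore genes were less far apart, such as CENPN at 2.34 and CENPK at 2.03. BUB3, SKA2, MIS12 and MAD1L1 stood at 1.06, 0.91, 0.84 and 0.14, only the first of these being past the size.

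Among the kinesins of mitosis 13 of 14 were higher and 0 lower (median 2.66). KIF2C, which removes tubulin from microtubule ends at kinetochores, had lowest, median and highest values of 23.8, 55.2 and 99.3 TPM in high cells and of 0, 0 and 23.6 TPM in low cells. KIF4A, a chromosome-bound kinesin, ran from 7.93 to 46.96 TPM and from 0 to 6.74 TPM. In both genes the high cells stood wholly above the low cells, KIF2C by a margin of less than 1 TPM. KIF11, which pushes spindle poles apart, differed by 3.14, whereas KIF2A differed by 0.50.

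The spindle proteins were higher in 16 of 18 cases and lower in 0, with a median of 3.0. FAM64A differed by 4.50 and was above 0 in 25 of 27 high and 3 of 27 low cells. HMMR, NUSAP1 and KNSTRN, which bind or organise spindle microtubules, differed by 4.37, 4.29 and 4.22. MAPRE1, the plus-end protein EB1, and NUMA1, a spindle pole protein that is nuclear in interphase, were at 0.62 and 0.13.

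Condensin and cohesin genes fell into different ranges. In the list, 11 of 17 were higher and 0 lower, with a median of 1.78. PTTG1, securin, which inhibits separase, differed by 5.05, with values of 97.0, 385 and 952 TPM in high cells and 0, 8.79 and 403 TPM in low cells. Its high and low cells overlapped broadly at the top of the low range. The condensin I subunits NCAPH and NCAPG differed by 4.19 and 4.05, and the shared subunits SMC4 and SMC2 by 2.13 and 1.78. The condensin II subunits NCAPG2, NCAPH2 and NCAPD3 differed by 2.87, 0.87 and 0.74. The cohesin ring genes RAD21, SMC3 and SMC1A were at 1.5, 1.16 and 0.90, STAG2 at 0.29 and WAPL, the cohesin release factor, at 0.18.

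The list of the anaphase-promoting complex also holds its E2 enzymes, coactivator and inhibitors. Its median of 0.57 was the smallest of the mitotic lists. Of its 17 genes 4 were higher (23.5%, beside 5.61% of all genes) and 0 lower. The score genes, such as UBE2C, are not among these 17. The 4 higher genes were FBXO5, the inhibitor EMI1, at 2.78, UBE2S, the chain-extending enzyme of the complex, at 1.76, and the core subunits CDC27 and ANAPC7 at 1.56 and 1.04. ANAPC1, the largest scaffold subunit, stood at 0.63 and the coactivator FZR1 at 0.27. Over these 7 lists 90 different genes were higher, which is 77.6% of those tested, and 0 were lower. In the G2/M list of the Seurat package, which overlaps them and from which the score genes were taken out, 43 of 46 were higher, with a median of 3.06.

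**Figure D3:**
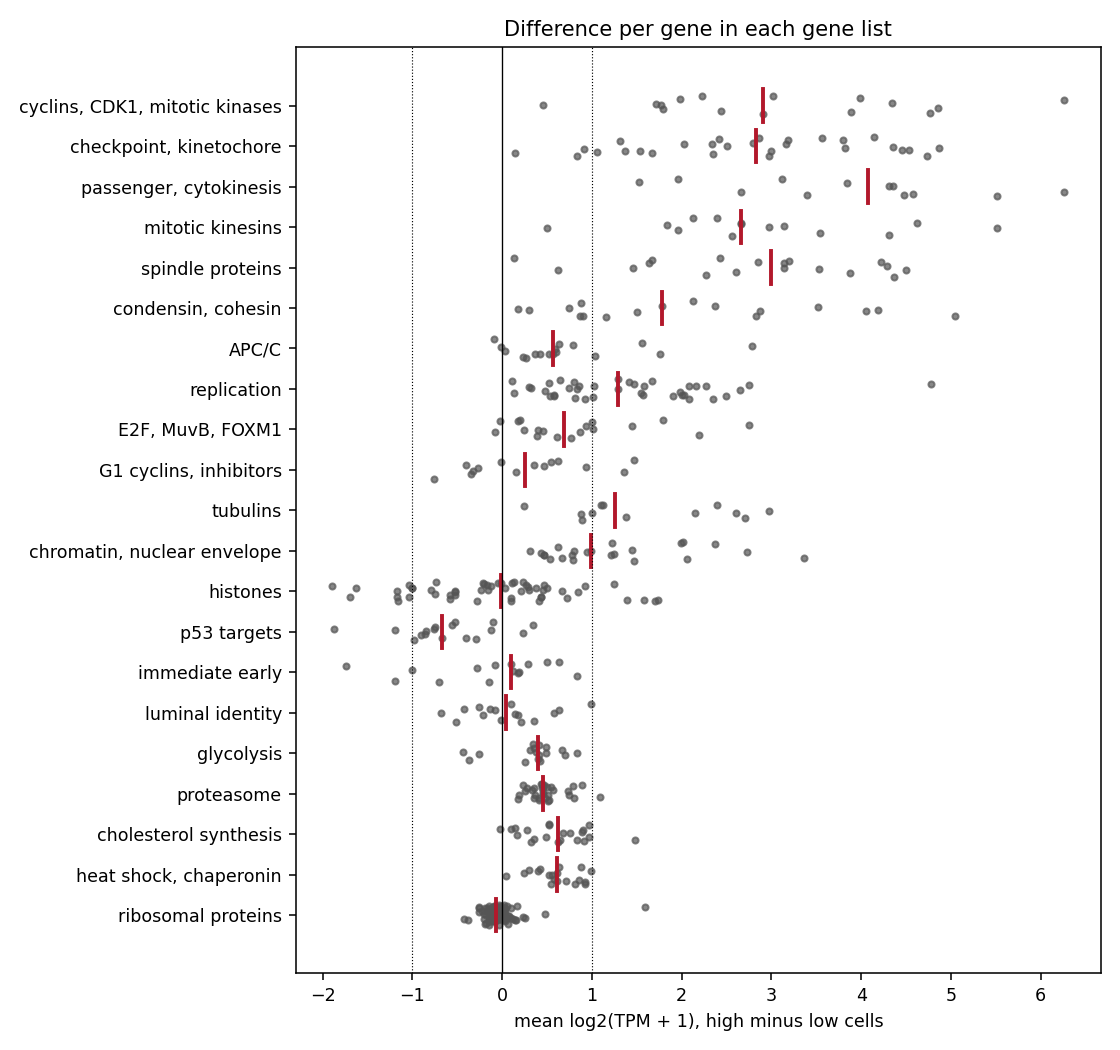
Difference in mean log2(TPM + 1), high minus low fixed HepG2-labelled cells, for each gene (points) of 21 lists, with the median of each list as a red bar; dotted lines mark the size of 1. The 12 passenger and cytokinesis genes lie wholly to the right of the upper line, and ribosomal protein genes cluster at 0.

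DNA synthesis genes gave another order of the cells. Of the 43 S phase genes of the Seurat package 24 were higher in high than in low cells and 0 lower (median 1.31), and of 39 replication genes 23 were higher and 0 lower (median 1.29). By the ratio of mean TPM, 13 S genes were higher and 1 lower, and 12 replication genes were higher, and with 41 cells on each side 14 replication genes were higher. Yet 41 of the 43 S genes and 37 of the 39 replication genes had their mean above that of high cells in the middle cells. This direction alone was not particular to them, being found in 74 of 82 ribosomal protein, 13 of 16 luminal and 8 of 31 proteasome genes. The median step from middle to high cells was -0.758 for the S genes and -0.573 for the replication genes. For ribosomal protein and luminal genes it was -0.104 and -0.107. The share of all tested genes with this direction is not given here. The summed TPM of the S genes had a median of 2622 in middle cells, 1485 in high cells and 679 in low cells. Its ranges were wide, from 824 to 4889 TPM in middle cells, from 816 to 3390 in high cells and from 240 to 2929 in low cells. Only 3 high cells and 3 low cells lay above the median of the middle cells. MCM6, a subunit of the replicative helicase, had medians of 19.1 TPM in high, 49.8 TPM in middle and 20.5 TPM in low cells, so high and low cells were alike in their medians and middle cells stood above both. PCNA, the sliding clamp, had medians of 78.5, 190.7 and 60.4 TPM, and CCNE2, the cyclin of the G1 to S transition, of 21.9, 38.5 and 2.90 TPM. UNG, the uracil glycosylase, was lower by 1.82 in high than in middle cells and by 0.88 in high than in low cells. RRM2, the small subunit of ribonucleotide reductase, combined both orders, at 24.3, 156.6 and 737 TPM in high cells, a median of 261 TPM in middle cells, and 0, 4.48 and 141.1 TPM in low cells. Its difference was 4.77 from high to low cells and -0.62 from high to middle cells.

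The higher genes, mitotic and other, differed in where along the score they stood apart. Of the 684 higher genes, 90 were in the 7 mitotic lists. Among all 684, 589 had a larger step from low to middle cells than from middle to high cells. In 190 of the 684 the mean was higher in middle than in high cells. AURKB, CDK1 and BIRC5 were already near their high value in middle cells, with steps from middle to high of 0.64, 0.27 and 0.48. The step was 2.45 for KIF20A, 2.29 for CDC25C, 2.06 for HMMR and 1.88 for DLGAP5, which were thus still well below their high value in middle cells. By list, the step from middle to high cells reached 1 in 9 of 18 spindle genes, 6 of 15 cyclins and kinases and 2 of 17 condensin and cohesin genes. It did so in 0 of the 39 replication genes. The share of all tested genes with such a step is not given here. The score itself also rose more from low to middle than from middle to high cells. Its means were 2.35, 5.52 and 6.78 in low, middle and high cells. Since the cells were chosen on genes that vary with those named here, the steps are given as values only.

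**Figure D4:**
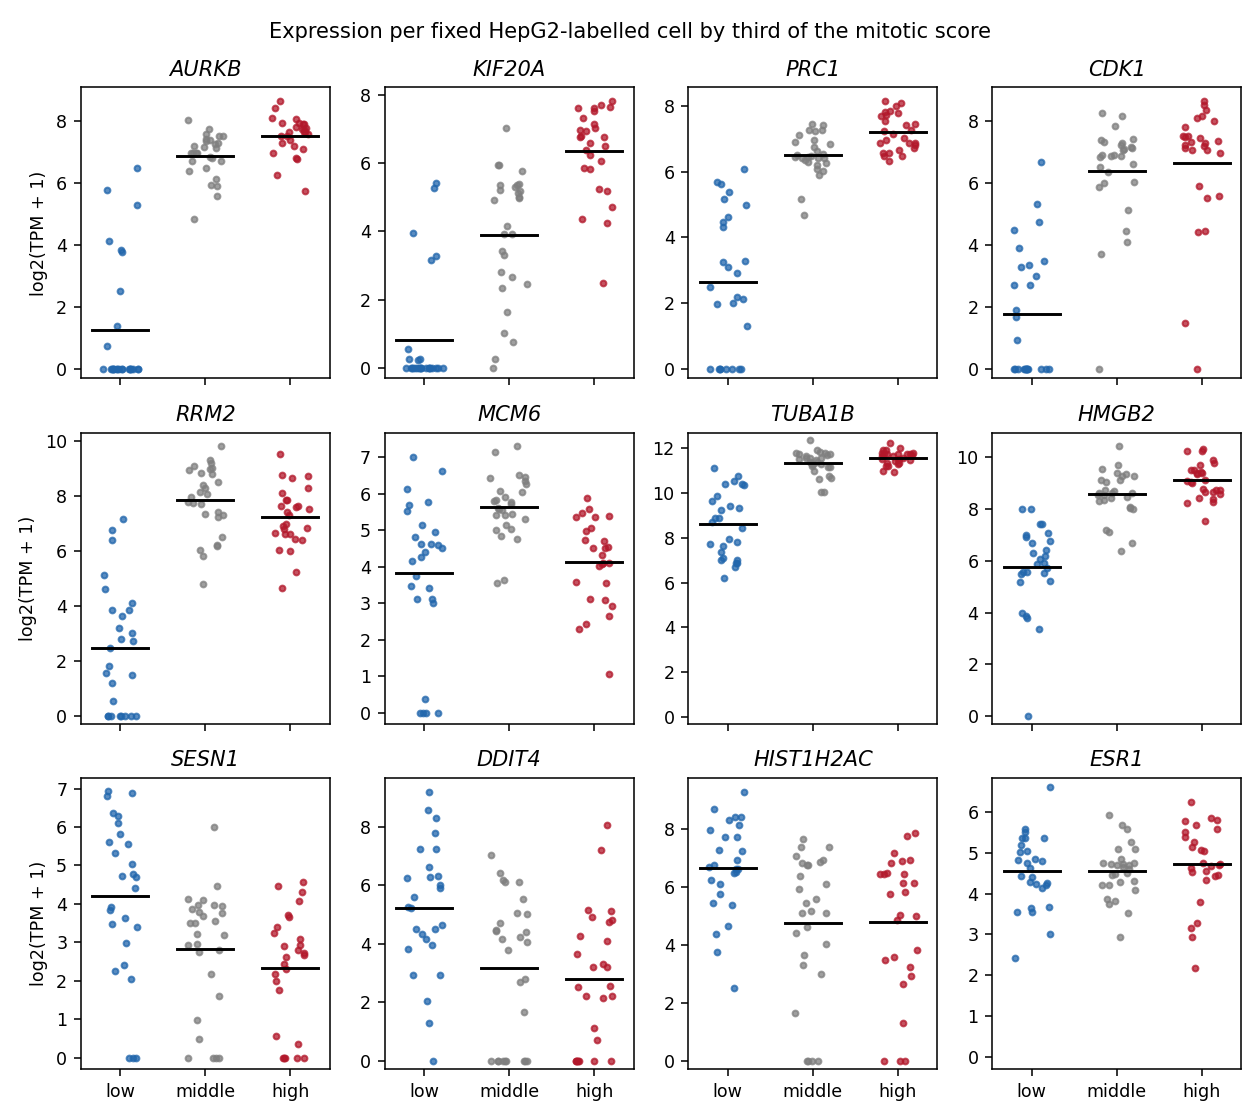
log2(TPM + 1) of 12 genes in each fixed HepG2-labelled cell, in low (27), middle (28) and high (27) cells by mitotic score; black lines are means. AURKB and CDK1 are similar in middle and high cells, KIF20A is lower in middle cells, MCM6 is highest in middle cells, and ESR1 is level.

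By list median, E2F, MuvB and FOXM1 factors and G1 genes were less far apart than the mitotic lists other than that of the anaphase-promoting complex. In the list of E2F, MuvB and FOXM1 factors 6 of 18 were higher (33.3%, beside 5.61% of all genes) and 0 lower, with a median of 0.68. FOXM1, the late activator, differed by 2.75, with medians of 18.9 TPM in high and 0.159 TPM in low cells. E2F8, a repressor of the family, differed by 2.19, MYBL2, which encodes B-MYB, by 1.79 and LIN9 of the MuvB core by 1.45. E2F1 differed by 0.20, RB1 by 0.40 and E2F4 by 0.46. Of 14 G1 genes 2 were higher (14.3%, median of the list 0.253) and 0 lower. The 2 were CCNE2 at 1.47 and the inhibitor CDKN2C at 1.36. CCND1, cyclin D1, was level at -0.02, with medians of 83.3 and 91.5 TPM.

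Tubulins, chromatin and the nuclear envelope were also higher in part. Of 12 tubulin genes 8 were higher and 0 lower, with a median of 1.26, and the summed TPM had medians of 6432, 5382 and 1124 in high, middle and low cells. TUBA1B, an alpha-tubulin, ran from 1951 to 4811 TPM in high cells, with a median of 3152, and from 71.9 to 2215 TPM in low cells, with a median of 418. A single low cell stood above the lowest high cell. TUBB4B, TUBA1C and TUBB differed by 2.70, 2.61 and 2.40, and tubulin genes are similar enough in sequence for reads to be split uncertainly between them. In the chromatin and nuclear envelope list 11 of 23 were higher and 0 lower (median 0.99). HMGB2, a chromatin protein, differed by 3.36, its values being 184.96, 539 and 1284 TPM in high cells and 0, 59.5 and 258 TPM in low cells. The importin KPNA2 differed by 2.73, the histone variant gene H2AFX by 2.37, and the lamina genes TMPO, LMNB1 and LBR by 2.06, 2.01 and 2.0. LMNA, the A-type lamin, and BANF1 were at 0.62 and 0.30.

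Housekeeping lists stood near or little above the median of all genes. Of 31 proteasome genes 31 had a difference above 0, beside 8043 of all 12190 tested genes, and 1 passed the size, PSMC3 at 1.08 (median 0.45). Of 19 heat shock and chaperonin genes 0 passed (median 0.61), of 17 glycolysis genes 0 passed (median 0.40), and of 21 cholesterol synthesis genes 1 passed, MVK at 1.47 (median 0.62). The 82 ribosomal protein genes had a median of -0.07, with RPL39L, a copy of RPL39 with a more restricted pattern, past the size at 1.59.

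The lower genes were fewer, smaller in difference and more varied. Protein-coding genes made up 56.2% of them, against 95% of the higher genes and 84.6% of all tested genes, and 20.8% were long noncoding RNA genes, against 6.29% of all tested genes. DDIT4, which restrains mTORC1 under stress, was lower by 2.43, its lowest, median and highest values being 0, 4.86 and 267 TPM in high cells and 0, 36.8 and 587 TPM in low cells. Both groups held cells at 0, and their ranges overlapped throughout. MIR1204, a microRNA gene within the host PVT1, had the largest lower difference, -2.71, and was above 0 in 7 of 27 high and 17 of 27 low cells. Full-length cDNA reads at such a gene cannot be told apart from reads of the host transcript. PCAT6, a long noncoding RNA, was lower by 1.88, and AKR1C3, a steroid reductase, by 1.65. KLK11 and EPB41L4A-AS1 were lower by 1.44 and 1.57, and reads of the latter, an antisense gene, may include those of its partner. The other 4 of the 15 largest lower differences, between -1.39 and -1.51, belonged to uncharacterised loci. Among these 15, only the differences of DDIT4 and PCAT6 were larger than the SD over cells on the log2 scale in both groups. Several were smaller than both SDs, such as those of MIR1204 (SDs 2.93 in high and 3.50 in low cells) and KLK11 (2.66 and 3.05).

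Targets of p53, the stress-activated factor that holds cells in G1, were on the lower side: 2 of 17 were lower by the size and 0 higher, 15 of 17 had a difference below 0, and the median was -0.67. Over all 12190 tested genes, 8043 had a difference above 0 and 0.788% were lower by the size. The number of p53 targets lower by the size was 1 with ribosomal RNA left out or with 41 cells on each side and 8 by the ratio of mean TPM. SESN1, a stress-responsive inhibitor of mTORC1, was lower by 1.87, at 0, 5.33 and 22.8 TPM in high cells and 0, 25.04 and 120.6 TPM in low cells. BTG2, an antiproliferative gene, was lower by 1.20. CDKN1A, the inhibitor p21, had medians of 25.5 TPM in high, 11.9 TPM in middle and 48.7 TPM in low cells, and with SDs of 2.16 and 3.03 on the log2 scale its difference of -0.76 lay within the spread of cells. MDM2, the ligase for p53, was at -0.67. Among 15 immediate early genes 3 were lower and 0 higher (median 0.10), namely FOS at -1.74, BTG2 and EGR1 at -1.01, whereas JUN stood at -0.15 and MYC at 0.18. With 41 cells on each side 0 of these were lower by the size.

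Histone genes of the replication-dependent kind were split, with 5 of 53 higher (9.43%, against 5.61% of all genes) and 10 lower (median -0.01). Which direction held more of them depended on the setting: 6 were higher and 5 lower with ribosomal RNA left out, 5 and 5 with the score genes scaled to unit variance, 5 and 1 with 41 cells on each side, and 9 and 4 with cells paired on the share of reads assigned. By the ratio of mean TPM 2 were higher and 10 lower. HIST1H2AC was lower by 1.89, with values of 0, 53.5 and 235 TPM in high cells and 4.70, 102.5 and 634 TPM in low cells. HIST1H2AI and HIST1H4H were lower by 1.70 and 1.63, and HIST1H2BD, HIST2H2BE and HIST1H2BG by 1.16 to 1.18. The higher ones included HIST1H3G at 1.71 and HIST1H1D, a linker histone, at 1.57. Most messages of this kind have no poly(A) tail, and the library primes on poly(A), so the values refer to the part that was captured. Copies such as HIST2H2AA3 and HIST2H2AA4 cannot be told apart by reads.

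The same score and split were applied to the other 3 groups, whose cells the rule did not use. In live HepG2-labelled cells, with 22 at each end, 1212 genes were higher (9.64%) and 1.18% of the genes lower. Fixed HCT-116 cells, with 31 at each end, had 1166 higher genes (10.0%) and 0.965% lower, and among live HCT-116 cells, with 30 at each end, 789 were higher (6.69%) and 91 lower (0.771%). Of the 684 genes higher in fixed HepG2-labelled cells, 436 were also higher by the size in live HepG2-labelled cells, which is 63.7% of the former and 36% of the latter list. The fixed HCT-116 cells shared 394 (57.6% and 33.8%) and the live ones 348 (50.9% and 44.1%), and 282 were higher in all of these groups. Such shares stand beside a background of 6.69 to 10.0% of all genes.

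The lower genes recurred in part. Of 96, 32 were lower by the size in live HepG2-labelled cells, which is 33.3% of the 96, beside 1.18% of all genes there. The fixed HCT-116 cells shared 7 (7.29%, beside 0.965%), with 71 of the 96 measured, and their live counterparts 6 (6.25%, beside 0.771%), with 70 measured. DDIT4 was lower in each group, by 2.13 in live HepG2-labelled, 1.81 in fixed HCT-116 and 1.52 in live HCT-116 cells, and HIST1H2AC was lower by 1.07, 1.89 and 1.89. SESN1 went the other way in live HepG2-labelled cells, at 0.45, and FOS was lower there by 2.07 but stood at 0.83 in fixed HCT-116 cells. The p53 targets differed between these groups as a list. In live HepG2-labelled cells 1 was higher and 0 lower, with a median of 0.10. In fixed HCT-116 cells 1 was higher and 1 lower (median -0.21), and in live HCT-116 cells 0 were higher and 3 lower (median -0.29).

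The mitotic lists had similar values in each group. The G2/M genes were higher in 43 of 46 cases in fixed HepG2-labelled, 45 in live HepG2-labelled, 44 in fixed HCT-116 and 43 in live HCT-116 cells, with medians of 3.06, 3.39, 3.84 and 3.89. The S genes varied more: 24, 21, 40 and 33 of 43 were higher, with medians of 1.31, 0.97, 2.41 and 1.63. In all 4 groups their summed TPM was highest in the middle cells, at medians of 2622, 2525, 3751 and 2950 TPM, against 1485, 1266, 2893 and 2098 TPM in high cells and 679, 608, 588 and 517 TPM in low cells. The difference between groups in these values was not tested, since each group is 1 sample.

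**Figure D5:**
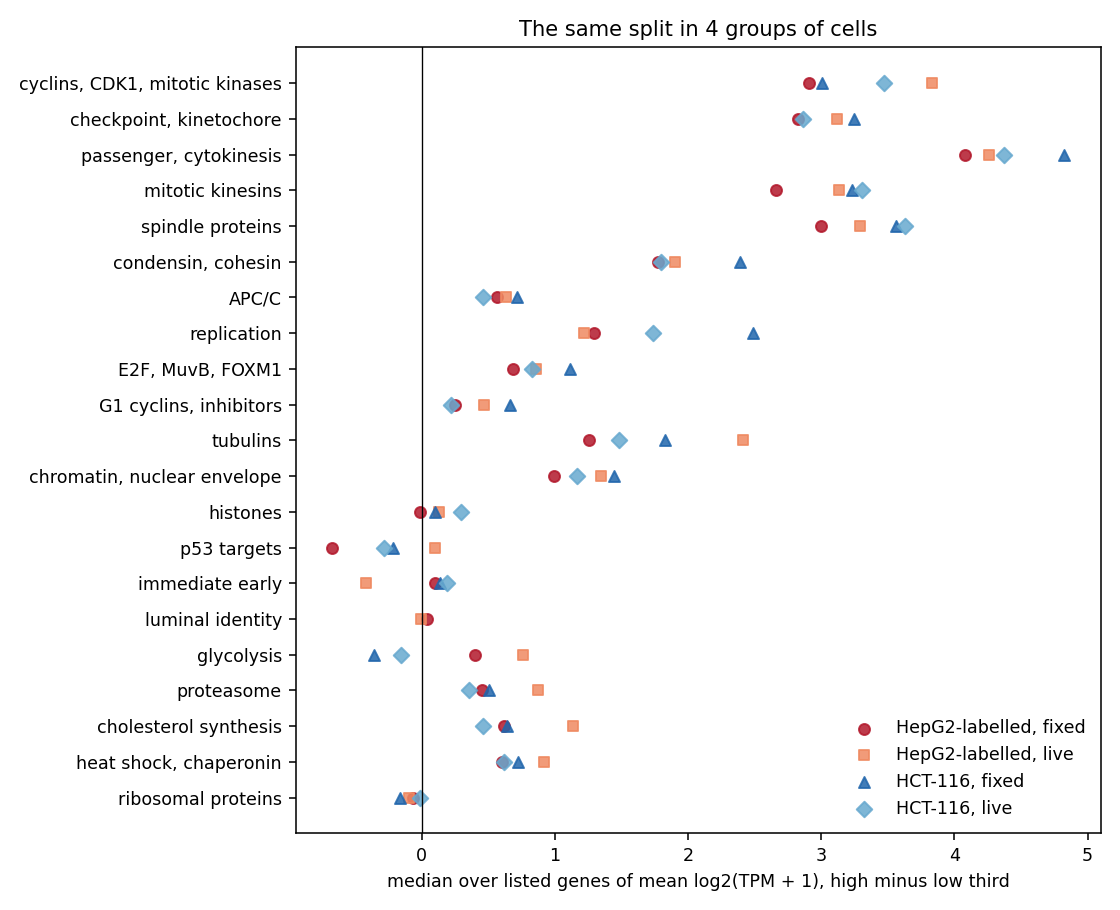
Median over the genes of each list of the difference in mean log2(TPM + 1), high minus low cells by mitotic score, in 4 groups of cells (markers); the luminal list is shown for HepG2-labelled cells only. The passenger and cytokinesis list is the farthest right in each group, and the p53 list is lowest in fixed HepG2-labelled cells at -0.67.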

How the data were processed

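The authors checked reads with FastQC, quantified them with kallisto 0.46.0 against GRCh38 and deposited gene tables as TPM and transcript tables that, though named TPM, hold CPM, whose totals show the share of reads assigned; the table's cells had passed a minimum of 4000 detected genes. Values are shares of a cell's RNA, so total RNA per cell is not seen. Columns were mapped to groups by their names, and 0 columns had no group. The deposited TPM were taken as log2(TPM + 1) with Python 3.11.15, numpy 2.4.6, pandas 2.3.3, scipy 1.17.1 and matplotlib 3.10.9. Total reads per cell were estimated in steps of 100000 from the smallest CPM steps. Depth limits genes of few TPM most, where a value of 0 may be a missed molecule. No doublet caller was run; the authors passed cells through a filter against clumps and gated single cells by scatter. A spreadsheet had turned 23 gene names to dates, and these were left as they stood.

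The members and gene lists were chosen with earlier results of these data known. Named were the 10 score genes, the 15 largest differences in each direction among genes with a mean of at least 10 TPM, and members of the lists, each with its list's count. The split was also run on simulated cells, whose noise was capped and which had no model of missed molecules. That run checks the calculation and says nothing on the spread or the zeros of these cells. Alternatives were the pseudocount, the minimum level, the scaling, the number of cells, the scaling of the score and pairing on depth.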

Additional observations from a re-analysis of the deposited data

How the results depend on the processing

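No paired analysis was possible because no test was made and the column numbers, which do not all occur in the cells' titles, pair no cells across groups; the pairing named here matches single high and low cells on depth or on the share of reads assigned. With a pseudocount of 0.1 TPM 2158 genes were higher and 445 lower, since low values then weigh more. Among genes with a mean of at least 10 TPM 45 were lower, fewer genes being counted. With 20 cells on each side 198 were lower, and with 41 cells on each side 365 were higher and 17 lower, the groups then reaching nearer to or into the middle cells. By the ratio of mean TPM 482 were lower, and with cells paired on the share of reads assigned, chosen after seeing the data as was leaving out the very similar columns, 233 were lower; the cause was not tested. The split of high and low cells was also made within each HCT-116 group with 20 cells on each side. Then 2008 genes were higher in the high cells of the fixed group and 1376 in the high cells of the live group. Direction was followed only for the genes named as the largest differences in each direction in fixed HepG2-labelled cells. None of these genes changed direction under the settings applied to the fixed HepG2-labelled cells. Other named genes and the HCT-116 splits were not part of this check. The balance of higher and lower genes turned by the ratio of mean TPM (472 higher). Among replication-dependent histones this balance turned or levelled under several settings. With 41 cells on each side 6 chromatin and nuclear envelope genes, 3 E2F, MuvB and FOXM1 factors and 0 G1 genes were higher. In the same setting PCAT6, FOS, HIST1H2AI, AKR1C3, HIST1H4H, KLK11 and LOC107983993 no longer passed the size, and KLK11 did not with cells paired on reads, nor HIST1H2AI and LOC107983993 with cells paired on the share assigned. Median-ratio scaling kept 445 of the 684 higher and 78 of the 96 lower genes. Each group is 1 sample, so the spread between cultures is unknown.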
